A study of Mus musculus with 6 samples.

Results

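Genes for lymphocyte homing within the spleen were followed in whole-spleen RNA of autoimmune-prone mice with and without a working interferon-γ receptor. The 8 genes were picked by name from known roles, with earlier results of these data known. They are the chemokine ligands Cxcl13, Cxcl12, Ccl19 and Ccl21a and the receptors Ccr7, Cxcr4, Gpr183 and Ccr6, and all 8 were found among 44794 loci with a gene name. There were 6 spleen samples in 2 groups of 3, B6.Sle1b and Sle1b.IFNγR-/-. B6.Sle1b mice carry a lupus susceptibility interval, and the other group carries the same interval and lacks the interferon-γ receptor. The labels do not name the disrupted receptor chain. Both groups received imiquimod, which stimulates the RNA sensor TLR7, 3 times per week for 4 weeks, and neither group has an untreated counterpart here. The labels give no age for the mice.

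In the white pulp of the spleen, stromal cells lay down chemokines that lead lymphocytes to separate zones. Follicular stroma and follicular dendritic cells make Cxcl13, which draws B cells through the receptor Cxcr5. Reticular cells of the T zone make Ccl19 and Ccl21, which draw T cells and activated dendritic cells through Ccr7. Cxcl12 and its receptor Cxcr4 act in the germinal centre dark zone and hold plasma cells in the red pulp, and Gpr183 guides B cells to the outer follicle by sensing an oxysterol.

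Ccl21a is shown first as sequence, because the mouse genome carries copies of it that are nearly the same and its values cannot be read without them. The copies Ccl21b, Gm10591, Gm13304 and Gm21541 each differ from the 402-base coding sequence of Ccl21a at 2 positions, T84A and C194T, counted from 1 at the first base of the start codon and with the base of Ccl21a first. Their coding identity to Ccl21a is 99.5%. The stretch from coding position 54 to 224 is printed 5′ to 3′ from the GENCODE transcripts, with the differing bases in capitals, for Ccl21a and for Gm21541, the copy with the highest values.
Ccl21a: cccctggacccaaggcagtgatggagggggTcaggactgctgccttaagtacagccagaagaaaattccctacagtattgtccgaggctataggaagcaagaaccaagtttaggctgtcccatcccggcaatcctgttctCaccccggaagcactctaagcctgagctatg
Gm21541: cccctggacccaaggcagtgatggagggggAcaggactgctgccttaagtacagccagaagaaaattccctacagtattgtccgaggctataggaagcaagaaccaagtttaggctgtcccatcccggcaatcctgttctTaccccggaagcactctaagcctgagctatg
Over the whole 870-base transcript, Gm21541 differs from Ccl21a at 6 positions. Short reads from most of either transcript would match both.

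The promoters of the homing genes were searched on both strands for the interferon-γ activated site TTCNNNGAA and the core GAAANNGAA of the interferon-stimulated response element. The windows, from 250 bases before to 50 bases after a gene's start, came from RefSeq (GRCm38.p6), which listed 8 windows for 7 of the genes. Of all 32851 promoters in that table, 8.3% hold the first motif and 8.56% the second. The first of the Ccr6 windows held TTCNNNGAA at 2 places, starting 157 and 120 bases before the start, and these are in capitals in its 250 bases upstream of the start (chr17:8235793-8236042, plus strand).
Ccr6 upstream: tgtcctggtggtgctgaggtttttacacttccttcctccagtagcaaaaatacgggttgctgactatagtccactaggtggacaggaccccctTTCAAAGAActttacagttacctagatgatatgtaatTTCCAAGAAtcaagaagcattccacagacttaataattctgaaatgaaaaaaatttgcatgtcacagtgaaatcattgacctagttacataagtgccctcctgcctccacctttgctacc
The Ccl19 window held GAAANNGAA once, starting 208 bases before the RefSeq start and inside an exon that GENCODE annotates further upstream. The 30 bases around it are printed for that reason (chr4:42756554-42756583, minus strand).
Ccl19 match: ttttgggacaGAAAGTGAAagctcaaggca
The other Ccr6 window and those of Cxcl13, Cxcl12, Ccl21a, Cxcr4 and Gpr183 held neither motif. These matches describe letters only.

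Each value is the number of fragments at a gene's locus after the authors' scaling of the libraries. The libraries held between 4394299 and 6349827 fragments, and a single fragment is worth between 0.822 and 1.198 scaled counts. Loci with a gene name took 27.0% of the signal in B6.Sle1b replicate 1, against 17.5% to 19.95% elsewhere. The ribosomal level, a median over 29 ribosomal protein genes each taken relative to its own mean over the libraries, was 2.48 in B6.Sle1b replicate 1 and lay between 0.754 and 0.981 in the others. Ifngr1, the ligand-binding chain of the receptor, gave 81.5, 34.5 and 63.7 scaled counts in the B6.Sle1b libraries, against 43.7, 21.4 and 24.0 in Sle1b.IFNγR-/-, which checks no label because a disrupted gene can still be transcribed. Whether each library stands for its own mouse is not stated in the labels, and p-values therefore reflect the spread among these libraries only.

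The comparison asks which transcripts of the imiquimod-treated spleen differ when the interferon-γ receptor is missing. No difference between the genotypes was called for any homing gene tested. The 95% intervals of Cxcl13, Ccr7, Cxcr4, Ccr6 and the Ccl21a locus alone include a 2-fold lower level (of the scaled count + 1). Those of Cxcl13 and Ccr7 include a 2-fold higher level as well. With the copies of Ccl21a summed, its interval ran from -0.71 to 0.34 on the log2 scale and included neither. Of the 8, 7 had a mean of at least 10 scaled counts and were tested with limma on log2(scaled count + 1). None had a Benjamini-Hochberg adjusted p under 0.05, and across all 19227 loci tested limma called 0, or 0.0%. None of the 7 had an unadjusted p under 0.05 either, against 3.1% of all loci. The 2 groups overlapped for all 8 genes at their own loci, the untested one included. Among all tested loci 5.19% had every Sle1b.IFNγR-/- library below every B6.Sle1b library and 3.51% had the reverse. With shares this small, overlap in all 8 genes does not set them apart. Summed with its copies, Ccl21a had groups that did not overlap. Of the 7 tested, 6 had a negative difference (Sle1b.IFNγR-/- minus B6.Sle1b), against 58.1% of all loci. Their median log2 difference was -0.25, and that of all loci was -0.08. In whole tissue, fewer cells of a type and less RNA per cell cannot be told apart.

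**Figure D1:**
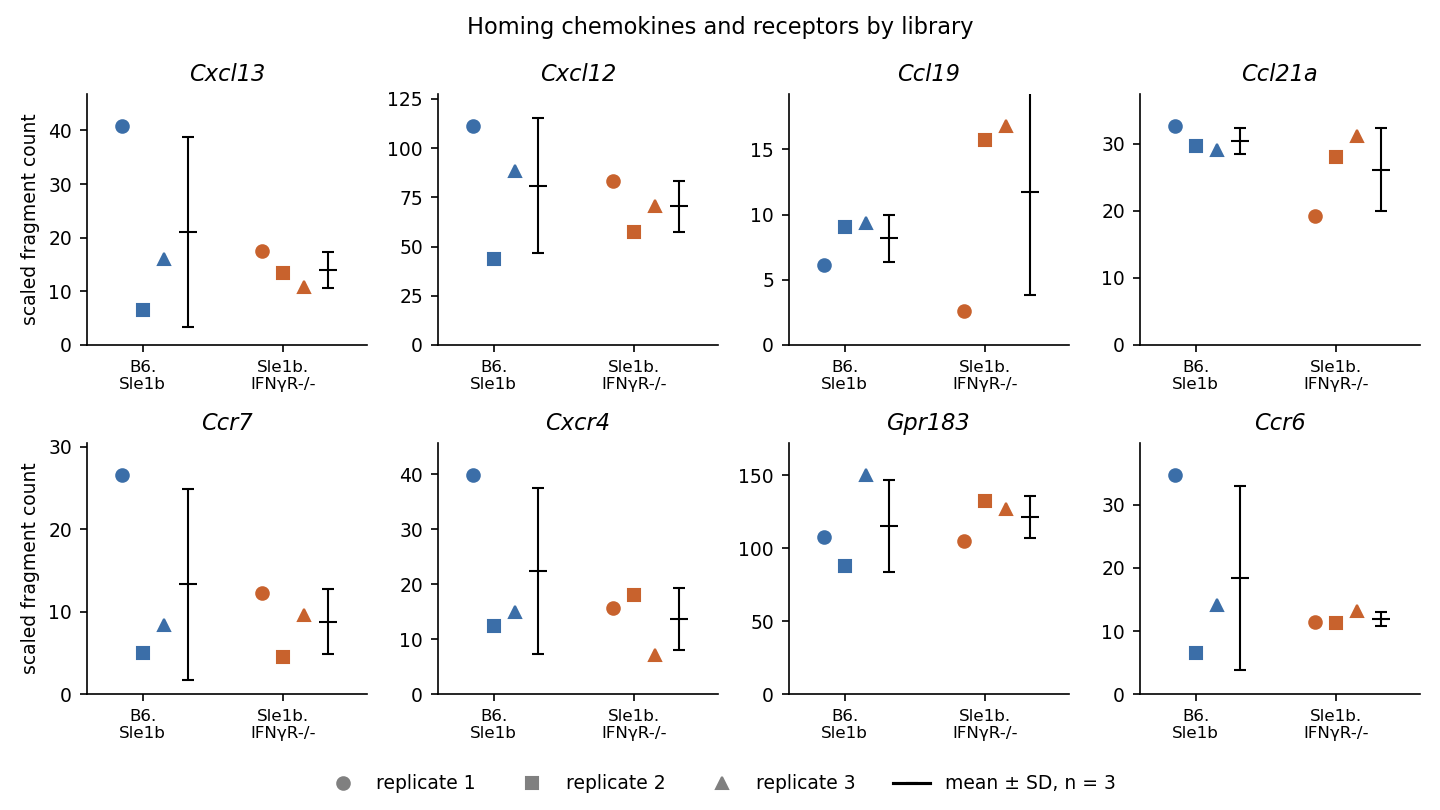
Scaled fragment counts (vertical axes, each from 0) of the 8 homing genes in each library, blue for B6.Sle1b and orange for Sle1b.IFNγR-/-, with symbols for replicates 1 to 3 and the mean ± SD of 3 libraries in black. B6.Sle1b replicate 1 is the highest library for Cxcl13, Cxcl12, Ccl21a, Ccr7, Cxcr4 and Ccr6, and the groups overlap in every panel.

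Cxcl13, the follicular chemokine for B cells (chr5:95956951-95961068 on GRCm38, as for all positions here), gave 40.8, 6.58 and 15.9 scaled counts in the B6.Sle1b libraries, against 17.5, 13.5 and 10.8 in Sle1b.IFNγR-/-. Both the highest and the lowest library were B6.Sle1b, and all 3 Sle1b.IFNγR-/- libraries lay between them. The means were 21.1 ± 17.7 and 13.9 ± 3.37 (SD, n = 3 each). The log2 difference was -0.25 (SE 0.60) with a 95% interval from -1.56 to 1.05. With 1 added to each scaled count, the interval spans 0.339 to 2.07 times the B6.Sle1b level. The limma adjusted p was 0.99976. That is also the adjusted p of each of the other 6 homing genes tested.

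Cxcr5, the receptor for Cxcl13 on follicular B cells and follicular helper T cells, gave 26.5, 2.47 and 17.8 scaled counts in the B6.Sle1b libraries, against 7.87, 11.2 and 5.99 in Sle1b.IFNγR-/-. It showed the same arrangement as its ligand, with both extremes in B6.Sle1b. Its log2 difference was -0.41 (SE 0.82, 95% interval -2.18 to 1.35).

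Cxcl12, made by stromal cells (chr6:117168535-117181367), gave 111, 43.6 and 88.1 scaled counts in the B6.Sle1b libraries, against 83.1, 57.3 and 70.7 in Sle1b.IFNγR-/-. Again the extremes were both B6.Sle1b libraries. The means were 80.9 ± 34.3 and 70.4 ± 12.9 (SD, n = 3 each), and the log2 difference was -0.11 (SE 0.36, 95% interval -0.90 to 0.67). The interval spans 0.537 to 1.59 times the B6.Sle1b level, with 1 added to each scaled count.

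Cxcr4, the receptor for Cxcl12 (chr1:128588199-128592293), gave 39.7, 12.3 and 14.999 scaled counts in the B6.Sle1b libraries, against 15.7, 17.98 and 7.19 in Sle1b.IFNγR-/-. B6.Sle1b replicate 1 stood above all others, and the lowest library was Sle1b.IFNγR-/- replicate 3. The means were 22.4 ± 15.1 and 13.6 ± 5.70 (SD, n = 3 each). At -0.58 (SE 0.55, 95% interval -1.78 to 0.62) its log2 difference was the furthest from 0 among the 7 tested, and its unadjusted limma p was 0.315. Without B6.Sle1b replicate 1 the difference was -0.09. Ackr3, a scavenging receptor that removes Cxcl12, gave 34.6, 27.1 and 29.1 in the B6.Sle1b libraries against 12.2, 19.1 and 32.3 in those of Sle1b.IFNγR-/-, for a log2 difference of -0.59 (SE 0.42). Of the Sle1b.IFNγR-/- libraries, replicate 3 alone reached the B6.Sle1b range.

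Ccl21a, the main T-zone chemokine (chr4:42772860-42773993), gave 32.6, 29.6 and 29.1 scaled counts in the B6.Sle1b libraries, against 19.2, 28.1 and 31.1 in Sle1b.IFNγR-/-. The B6.Sle1b libraries lay close together, and Sle1b.IFNγR-/- replicate 1 was the lowest of all. The means were 30.4 ± 1.91 and 26.2 ± 6.19 (SD, n = 3 each), and the log2 difference was -0.24 (SE 0.36, 95% interval -1.01 to 0.53).

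Most of the signal of this sequence lay at the copies. Gm21541 (chr4:41903610-41904743) gave 81.5, 79.7 and 81.6 scaled counts in the B6.Sle1b libraries, against 76.1, 73.0 and 68.3 in Sle1b.IFNγR-/-. Gm13304 (chr4:42114817-42115917) had 65.2, 59.2 and 56.2 against 62.1, 48.3 and 52.7. The groups of Gm21541 did not overlap, with Sle1b.IFNγR-/- lower as for 5.19% of all loci tested. Its difference of -0.16 on the log2 scale (SE 0.27) did not pass limma's test, and the groups of Gm13304 overlapped. Ccl21b reached at most 9.17 scaled counts, and Ccl21c and Gm10591 were listed at 0 in every library.

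Summed over Ccl21a and its copies, the signal was 189, 169 and 169 in the B6.Sle1b libraries, against 158, 149 and 155 in Sle1b.IFNγR-/-. Every Sle1b.IFNγR-/- library lay below every B6.Sle1b library, as for 5.19% of all loci tested. The means were 175 ± 11.5 and 154 ± 4.42 (SD, n = 3 each), and the log2 difference was -0.18 (SE 0.24, 95% interval -0.71 to 0.34, limma adjusted p = 0.99976). Ccl21a itself held between 12.2% and 20.2% of the sum. How reads that fit several copies were assigned is not stated in the labels, so the split between the loci is uncertain.

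**Figure D2:**
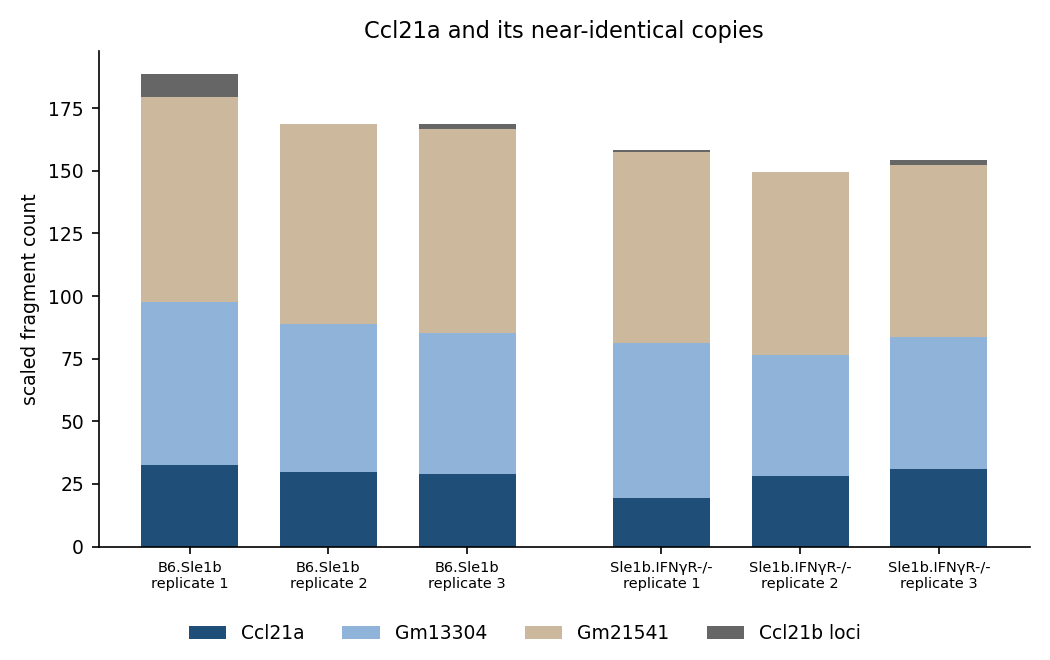
Scaled fragment counts of Ccl21a, Gm13304, Gm21541 and the Ccl21b loci, stacked for each library (bars from 0). The sums run from 149 to 158 in Sle1b.IFNγR-/- and from 169 to 189 in B6.Sle1b, and Ccl21a is the smallest of the 3 large segments in every library.

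Ccl19, the other T-zone ligand (chr4:42754525-42756577), gave 6.11, 9.04 and 9.37 scaled counts in the B6.Sle1b libraries, against 2.62, 15.7 and 16.8 in Sle1b.IFNγR-/-. The lowest library and the 2 highest were all Sle1b.IFNγR-/-. With a mean of 9.94 over the 6 libraries it missed the minimum of 10 and was not tested, and its log2 difference without a test was 0.18. The lowest value rests on 3 fragments and the highest on 14. Ccl19 and Ccl21a both lie inside 4930578G10Rik on the opposite strand, which had between 6.56 and 27.0 scaled counts and shares 0 exon bases with either.

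Ccr7, the receptor for both T-zone ligands (chr11:99144196-99155077), gave 26.5, 4.93 and 8.44 scaled counts in the B6.Sle1b libraries, against 12.2, 4.50 and 9.58 in Sle1b.IFNγR-/-. B6.Sle1b replicate 1 was the only high library, and replicate 2 of each genotype was low. The means were 13.3 ± 11.6 and 8.77 ± 3.94 (SD, n = 3 each). Its log2 difference of -0.33 (SE 0.76) had the widest 95% interval of the 7, from -1.98 to 1.32. Ackr4, which scavenges Ccl19 and Ccl21, gave 20.4, 11.5 and 26.2 in the B6.Sle1b libraries against 37.6, 20.2 and 14.4 in those of Sle1b.IFNγR-/-, with overlapping groups and a log2 difference of 0.26 (SE 0.47).

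Gpr183, the oxysterol receptor that positions B cells and dendritic cells (chr14:121952551-121965195), gave 108, 88.0 and 149.99 scaled counts in the B6.Sle1b libraries, against 105, 133 and 127 in Sle1b.IFNγR-/-. The Sle1b.IFNγR-/- libraries fell within the B6.Sle1b range. The means were 115 ± 31.7 and 122 ± 14.6 (SD, n = 3 each). The log2 difference was 0.10 (SE 0.29), and its 95% interval from -0.52 to 0.72 was the narrowest of the 7. With 1 added to each scaled count, that interval spans 0.698 to 1.65 times the B6.Sle1b level. Gpr183 lies within Ubac2 on the opposite strand. Their exons share 0 bases, and Ubac2 had between 128 and 171 scaled counts. The strand setting of the counting is not given, and what unspliced reads of Ubac2 add to Gpr183 was not tested.

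Of 4 enzymes listed for oxysterol metabolism, which makes and breaks down the ligand of Gpr183, 2 reached the minimum mean and neither was called. Ch25h, which begins the synthesis, had 0.874 scaled counts in Sle1b.IFNγR-/- replicate 1 and was listed at 0 in the other 5 libraries. Cyp7b1, the second enzyme of the synthesis, had 14.1 ± 3.28 in B6.Sle1b against 11.4 ± 2.42 in Sle1b.IFNγR-/- (SD, n = 3 each), a log2 difference of -0.28 (SE 0.53). Hsd3b7, which degrades the ligand, had 39.4 ± 15.8 and 27.2 ± 9.09 (SD, n = 3 each), but its locus also carries the name of its neighbour Setd1a. Cyp27a1, another sterol hydroxylase, reached at most 4.69 scaled counts.

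Ccr6, a receptor of B cells and some T cells (chr17:8236043-8257141), gave 34.6, 6.58 and 14.1 scaled counts in the B6.Sle1b libraries, against 11.4, 11.2 and 13.2 in Sle1b.IFNγR-/-. The 3 Sle1b.IFNγR-/- libraries were nearly level and lay inside the B6.Sle1b range. The means were 18.4 ± 14.5 and 11.9 ± 1.08 (SD, n = 3 each), and the log2 difference was -0.31 (SE 0.60, 95% interval -1.61 to 0.99). Its ligand Ccl20 was listed at 0 in 4 libraries, the 3 Sle1b.IFNγR-/- libraries among them, and had 1.64 and 0.937 scaled counts in B6.Sle1b replicates 2 and 3. These correspond to 2 fragments and 1 fragment.

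Few fragments stood behind most of these values. The Cxcl13 values of B6.Sle1b replicates 1 and 2, its highest and lowest libraries, rest on 40 and 8 fragments, with exact 95% Poisson intervals of 28.6 to 54.5 and 3.45 to 15.8. For Ccr6 the same libraries held 34 and 8 fragments (23.5 to 47.5 and 3.45 to 15.8), and for Ccr7 26 and 6 (17.0 to 38.1 and 2.202 to 13.1). The Ccl21a intervals of all 6 libraries overlapped, from 22 fragments (13.8 to 33.3) to 36 (25.2 to 49.8). Gpr183, with 106 to 160 fragments, was the best covered of the 8. For Ccl19, Sle1b.IFNγR-/- replicate 1 held 3 fragments (0.619 to 8.77) and replicates 2 and 3 held 14 each (7.65 to 23.5). These Ccl19 intervals overlap in fragments only. A fragment is worth 0.874 scaled counts in replicate 1, 1.12 in replicate 2 and 1.198 in replicate 3. In scaled counts the interval of replicate 1 therefore lies below those of replicates 2 and 3. Intervals of this kind cover counting error only.

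To rank the homing genes by level, scaled counts per kilobase of exon were used. The length joined all exons that GENCODE annotates for a gene, whichever transcripts the spleen uses. It was 8176 bases for Cxcl12 and 867 for Ccl19. Gpr183 was highest at 41.0 ± 7.73, followed by Ccl21a at 32.5 ± 5.42 and Cxcl13 at 15.2 ± 10.5 (SD over 6 libraries, as for the following). The Ccl21a value is that of its own locus without the copies. The copies Gm21541, at 88.2 ± 6.10, and Gm13304, at 68.5 ± 7.40, each lay above Gpr183. The place of Gpr183 above Ccl21a therefore holds only with these copies left out. After Cxcl13 came Ccl19 at 11.5 ± 6.31, Cxcr4 at 9.95 ± 6.24 and Cxcl12 at 9.25 ± 2.92. Ccr6, at 6.54 ± 4.26, and Ccr7, at 5.58 ± 4.10, were lowest. The ranges of every neighbouring pair in this order overlapped. Within libraries Ccl21a exceeded Cxcl13 in 6 of 6, Cxcl12 exceeded Ccr6 in 5 and Ccr6 exceeded Ccr7 in 5, while the other 4 neighbouring pairs kept their order in only 3 or 4 of the 6.

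Receptor genes of smell and related senses, which spleen is not known to use, give a background for these levels. Over 1793 odorant, vomeronasal and trace-amine receptor genes, the median was 1.87 scaled counts per kilobase and the 90th percentile 9.999. The mean level of Gpr183 exceeded that of 98.5% of these genes, Ccl21a 97.9%, Cxcl13 93.6% and Ccl19 91.2%. For Cxcr4 the share was 89.8%, for Cxcl12 88.6%, for Ccr6 83.5% and for Ccr7 80.1%. With this length, Cxcr4, Cxcl12, Ccr6 and Ccr7 lay under the 90th percentile of these sensory genes. Cxcl12 had 461 fragments over the 6 libraries, and its place here depends on the 8176 bases taken as its length.

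**Figure D3:**
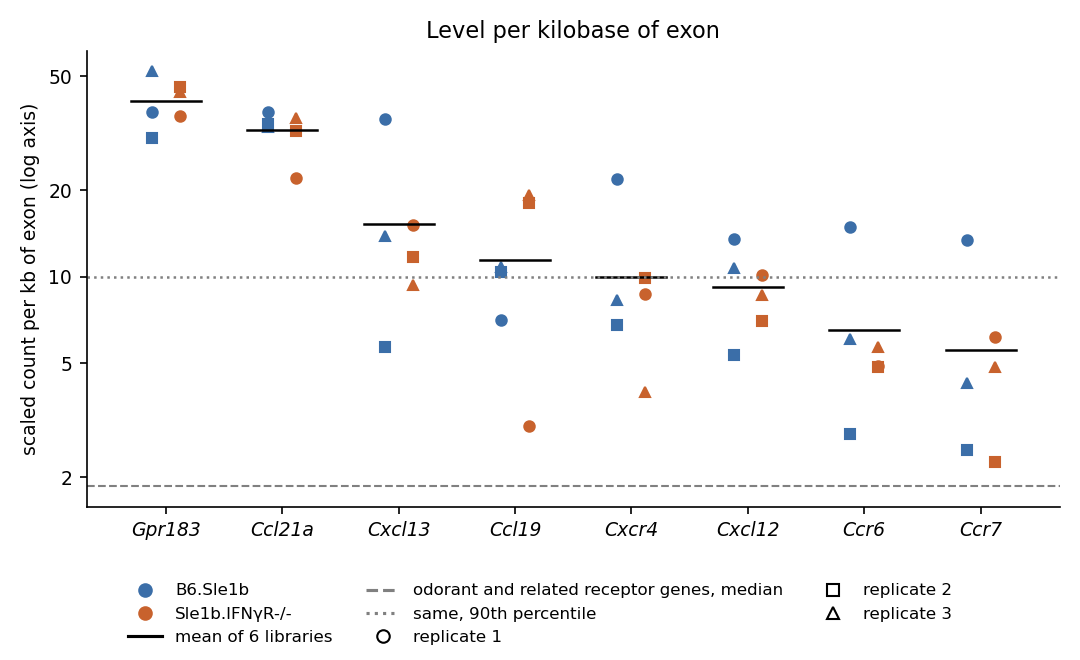
Scaled count per kilobase of exon (log axis) of the 8 genes in each library, ordered by the mean of 6 libraries (black bars), with the median (dashed, 1.87) and 90th percentile (dotted, 9.999) of 1793 odorant and related receptor genes. Every library of Gpr183 and Ccl21a lies above the dotted line, and the bars of Cxcr4, Cxcl12, Ccr6 and Ccr7 lie under it.

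B6.Sle1b replicate 1, the library with the high ribosomal level, was the highest of the 6 for 6 of the 8 homing genes, against 37.9% of all loci tested. B6.Sle1b replicate 2, with the lowest ribosomal level, was the lowest for 4, against 24.3% of all loci. In replicate 1, Ccr7 stood at 3.34 times the mean of the other 5 libraries, Cxcl13 at 3.17, Ccr6 at 3.07, Cxcr5 at 2.92 and Cxcr4 at 2.91. The same ratio was 1.62 for Cxcl12, 1.19 for Ccl21a, 0.896 for Gpr183 and 0.571 for Ccl19. Over all loci tested its median was 1.18, with quartiles of 0.829 and 1.68. The summed level of all 23 gene lists was highest in that library. For 12 B cell markers it was 2203 in that library, between 1065 and 1275 in the other B6.Sle1b libraries and between 1169 and 1276 in Sle1b.IFNγR-/-. For 8 markers of follicular dendritic cells the sum was 1157 in that library, 335 and 626 in the other B6.Sle1b libraries and between 563 and 669.8 in Sle1b.IFNγR-/-. The excess was as large or larger for other lists: 12 housekeeping genes summed to 5088 there and to between 824 and 1586 in the other libraries, and erythroid markers to 1140 and between 152 and 496.

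**Figure D4:**
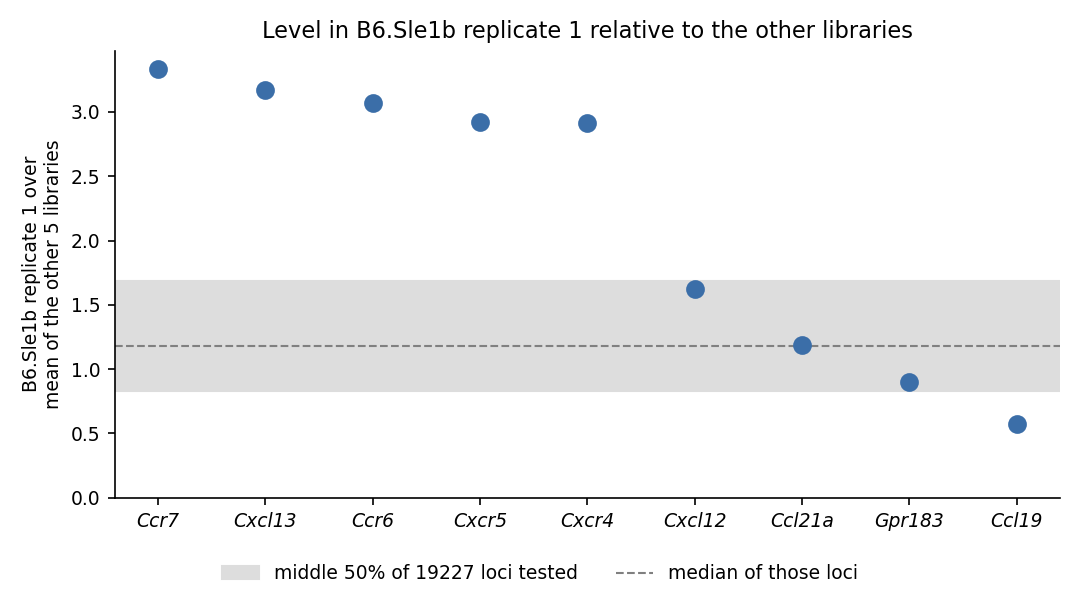
Level in B6.Sle1b replicate 1 divided by the mean of the other 5 libraries (vertical axis from 0) for the 8 homing genes and Cxcr5, with the median (dashed, 1.18) and the range from 0.829 to 1.68 that holds the middle of all loci tested (grey). Ccr7, Cxcl13, Ccr6, Cxcr5 and Cxcr4 stand near 3 and above the grey band, while Cxcl12, Ccl21a and Gpr183 stand inside it and Ccl19 below it.

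Several differences changed sign without this library. Without B6.Sle1b replicate 1 the log2 difference was 0.37 for Cxcl13, 0.16 for Cxcl12, 0.27 for Ccr6 and 0.29 for Ccr7, each negative with all 6 libraries, and Ccr7 then missed the minimum mean for the test. Without B6.Sle1b replicate 2 the same 4 genes were at -0.86, -0.50, -0.85 and -0.81. With the ribosomal level of each library as a covariate the values were 0.39, 0.18, 0.26 and 0.24. Leaving out Sle1b.IFNγR-/- replicate 2 instead also changed the sign of Cxcl12, to 0.024, and of Ccr7, to 0.036. None of these differences passed limma's test. Ccl21a stayed negative in each of these fits, at -0.19 without replicate 1, and became 0.23 only after scaling to ribosomal protein genes, which moved the median of all loci to 0.39. Cxcr4 had a negative difference, between -0.89 and -0.07, in every alternative but the minimum mean of 50, which it missed.

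**Figure D5:**
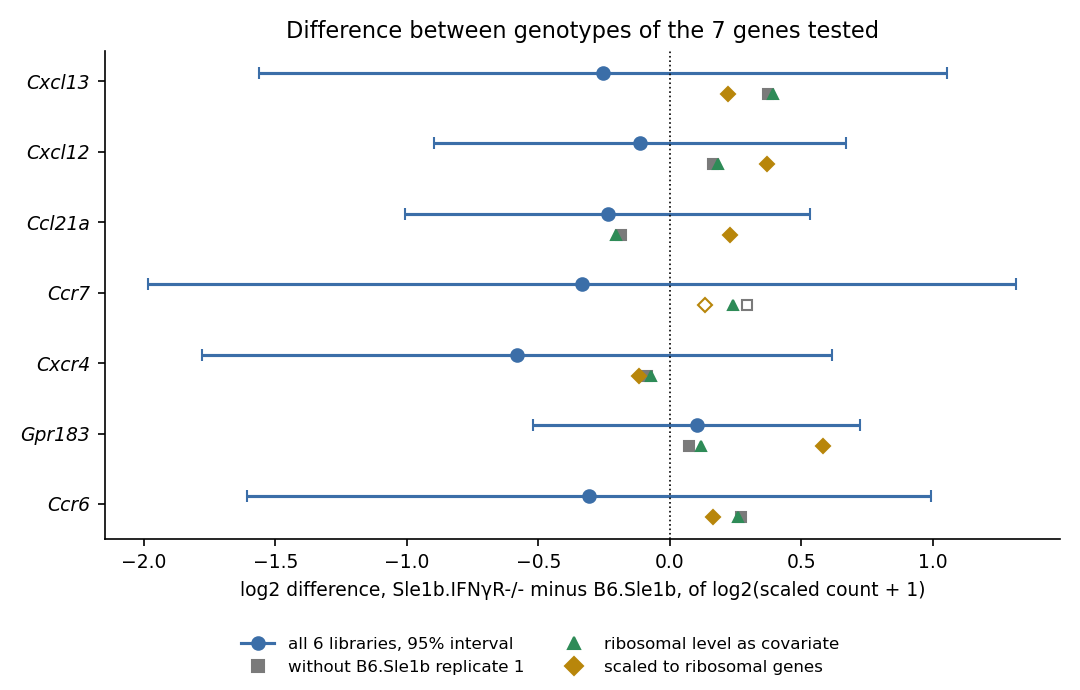
Log2 difference (horizontal axis, Sle1b.IFNγR-/- minus B6.Sle1b) of the 7 genes tested with its 95% interval (blue), and the same difference without B6.Sle1b replicate 1 (squares), with the ribosomal level as covariate (triangles) and after scaling to ribosomal protein genes (diamonds), open where the gene missed the minimum mean. Every interval includes 0, and Cxcl13, Cxcl12, Ccr7 and Ccr6 change sign in all 3 alternatives.

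Within-library ratios between homing genes, and of Cxcr5 to Ccr7, depend on the scaling only through the 1 added to each scaled count. That matters most for low genes. Of 8 log2 ratios compared, all overlapped between the genotypes, and the two-sided exact permutation p lay between 0.6 and 1.0 (adjusted p = 1 for each), where 3 against 3 libraries cannot go below 0.1. The ratio of the B cell to the T cell attractant, Cxcl13 to Ccl21a, was -0.84 ± 1.16 in B6.Sle1b and -0.86 ± 0.67 in Sle1b.IFNγR-/- (SD, n = 3 each). It uses the Ccl21a locus alone, so its level would be lower with the copies added. The difference between genotypes was -0.02 for that locus and -0.07 with the copies summed. Gpr183 to Ccr7, receptors of the outer follicle and the T zone, stood at 3.30 ± 1.14 and 3.73 ± 0.81, and Ccl19 to Ccl21a at -1.79 ± 0.39 and -1.38 ± 0.96. The other differences between genotypes ranged from -0.43 for Cxcl13 to Ccl19 to 0.03 for Ccr6 to Ccr7.

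The spread among libraries was wider in B6.Sle1b for 6 of the 8 genes on the log2 scale, against 59.0% of all loci tested. The highest Ccr6 library was 5.27 times the lowest in B6.Sle1b and 1.17 times in Sle1b.IFNγR-/-. For Cxcl13 these ratios were 6.20 and 1.62, and for Ccr7 5.37 and 2.72. Ccl19 and Ccl21a went the other way. The ratio for Ccl19 was 1.53 in B6.Sle1b and 6.39 in Sle1b.IFNγR-/-, and for Ccl21a 1.12 and 1.62.

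The profile of each gene over the 6 libraries was compared with those of 155 other listed immune and tissue genes (156 for Ccl19) by the root mean square (RMS) difference of centred log2 values. Ccr6 lay close to the integrin gene Itga4, at 0.12 against a median of 0.548 over the genes compared. Cxcl13 lay nearest to Itga4, at 0.19, then to the B cell receptor gene Cd79b at 0.20. Cxcr4 lay nearest to the collagen gene Col1a2 at 0.18, then to Pdgfra at 0.24. Cxcl12 lay nearest to the sphingosine-1-phosphate receptor gene S1pr3 at 0.23. Ccr7 lay nearest to Gnai2, an inhibitory G protein gene, at 0.16 and to Ermap at 0.22. Ccl21a lay nearest to Zbtb46 at 0.16 and Traf3 at 0.18, and Gpr183 to Cxcr6 at 0.17 and Cx3cl1 at 0.21. Ccl19 lay nearest to Sphk1 at 0.44, against a median of 1.02 over the genes compared, and to Acta2 at 0.56. The high ribosomal library enters every one of these profiles.

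Lymphotoxin and TNF signalling induces Cxcl13, Ccl19 and Ccl21 in stroma. Of 15 genes listed for it, 6 reached the minimum mean and none was called, with 1 positive and 5 negative differences and a median log2 difference of -0.41. The ligand genes Lta, Ltb, Tnf, Tnfsf11 and Tnfsf14 missed the minimum mean. They reached at most 6.11, 8.38, 7.50, 13.2 and 13.2 scaled counts. The receptor gene Ltbr, with at most 4.08, missed it too. Tnfrsf11a had the smallest p of the list, at 28.9 ± 2.38 in B6.Sle1b against 19.97 ± 3.82 in Sle1b.IFNγR-/- (SD, n = 3 each).

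Signalling behind the receptors was not called either. Of 16 tested genes downstream of chemokine receptors, 13 had negative differences (median -0.50). The smallest p belonged to the actin regulator Coro1a, at 53.3 ± 64.2 and 11.1 ± 5.89, and to Dock2, a Rac activator needed for lymphocyte migration, at 203 ± 119 and 104 ± 18.3 (SD, n = 3 each). Of 10 adhesion genes 7 were negative (median -0.28). Glycam1, a ligand of L-selectin with the smallest p of that list, went the other way, at 37.9 ± 9.31 and 65.4 ± 7.76. Its groups did not overlap, with Sle1b.IFNγR-/- higher as for 3.51% of all loci tested. Of 8 genes of the sphingosine-1-phosphate system, which governs exit from the organ, 5 were negative (median -0.19).

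Among the inflammatory chemokines Cxcl9, an interferon-γ target, gave 207, 46.0 and 67.5 scaled counts in the B6.Sle1b libraries, against 6.12, 15.7 and 7.19 in Sle1b.IFNγR-/-. Its groups did not overlap, with Sle1b.IFNγR-/- lower as for 5.19% of all loci tested. Its log2 difference of -3.14 (SE 0.53) had an unadjusted limma p of 5.47e-05 and an adjusted p of 0.99976. Cxcl10, another target, named here after its values were seen, gave 77.4, 5.75 and 9.37 against 27.98, 22.5 and 15.6, with overlapping groups and a log2 difference of 0.35 (SE 0.73). The 95% interval of no homing gene tested reached the point estimate of Cxcl9, which has an error of its own. Whether Cxcl9 and the homing genes differ in their response was not tested. Of the 12 inflammatory chemokines tested, 5 were negative (median 0.01), and of 9 other chemokine receptors 8 were negative (median -0.45), Cx3cr1 at -1.02 (SE 0.55) and Cxcr3 at -1.41 (SE 0.87) among them. A list of partners and scavenging receptors had 5 tested genes, Cxcr5, Ackr2, Ackr3, Ackr4 and Ccrl2, with 4 negative differences (median -0.41). Not all of them bind a homing ligand named here.

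Markers of the cells that make or read these signals were counted the same way, and none was called. Negative differences were found in 9 of 12 B cell markers (median -0.23), 5 of 11 T cell markers (0.12), 6 of 6 dendritic cell markers (-0.43) and 4 of 7 follicular dendritic cell markers (-0.25). In stroma and vessels, 4 of 9 fibroblastic reticular markers (0.08) and 3 of 7 endothelial markers (0.09) were negative. The complement receptor gene Cr2, with the smallest p of the B cell list, had 57.2 ± 23.6 in B6.Sle1b against 99.3 ± 16.8 in Sle1b.IFNγR-/-. Most of that list went the other way. Flt3, with the smallest p of the dendritic cell list, had 33.2 ± 5.96 and 18.1 ± 4.05 (SD, n = 3 each). Neither gene had overlapping groups. Of all loci tested, 3.51% were apart with Sle1b.IFNγR-/- higher, as for Cr2, and 5.19% with it lower, as for Flt3. Serpine2, of the follicular dendritic list, had the smallest p there, at 43.1 ± 6.30 and 76.9 ± 15.8 (SD, n = 3 each). It was higher in every Sle1b.IFNγR-/- library, as were 3.51% of all loci tested, while most of its list was negative. Pdpn, which defines the reticular cells of the T zone, was listed at 0 in 4 libraries and reached at most 4.79 scaled counts. The part of these cell types in the levels of the homing genes was not tested.

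In other lineages, 4 of 9 macrophage markers (median 0.37), 4 of 5 neutrophil markers (-0.14), 6 of 6 antibody-forming cell markers (-1.10) and 2 of 7 erythroid markers (0.17) were negative. Among control genes, 23 of 28 ribosomal protein genes (-0.57) and 11 of 12 housekeeping genes (-0.41) were negative, again with none called.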

How the data were processed

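RNA of imiquimod-treated spleens was extracted with TRIzol and made into libraries with the NuGEN Ovation V2 kit, per the labels' protocols. The submitters' processing notes name TopHat2 2.0.9, Cufflinks 2.2.1, CASAVA and the mouse build GRCm38. The strand setting, the treatment of multiply mapping reads and the annotation release were not given in the sources used here. Per the file headers, the deposited signal consists of fragment numbers for each locus after scaling by the authors. Its 1530481 rows were collapsed to 426574 loci, of which 44794 had a gene name, and 24 further columns of per-sample values were not used. In each library 99.8% of positive values were whole multiples (within 0.01) of 1 step, taken as a single fragment. Since the rest were not, tests for counts were not used.

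The test used limma 3.58.1 (R 4.3.3, intensity trend, genotype as the only term) on log2(value + 1) of the 19227 named loci whose mean reached 10, with Benjamini-Hochberg adjustment over all of them. Changes of low genes are understated on this scale. The exact permutation test of each ratio was two-sided and came from scipy 1.17.1 (python 3.11.15, pandas 2.3.3, numpy 2.4.6, matplotlib 3.10.9). Gene positions are from the GENCODE mouse annotation of GRCm38 and promoters from RefSeq.

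The homing genes and 23 gene lists (260 of 268 entries matched) were chosen with earlier results of these data known. Genes named are the 8 homing genes, their direct partners, genes of smallest p in each list, the 2 listed genes nearest to each in profile (1 of the 2 is not reported here for Ccr6 and for Cxcl12) and the Ccl21 copies. Cxcl10, Lta, Ltb, Tnf, Tnfsf11, Tnfsf14, Ltbr, Pdpn and the overlapping genes Ubac2 and 4930578G10Rik were named after their values were seen. Gm21953, listed as a copy, has an unrelated transcript and was left out. Alternatives were other scalings (median ratio, total of named loci, ribosomal genes), the ribosomal level as a covariate, pseudocounts of 0.5 and 10, no filter or a minimum of 50, all loci, summed loci, a replicate block and leaving out each library. On simulated data for this comparison with 19227 genes, 8 of 100 genes changed by a fold of 2 and 59 of 100 changed by a fold of 4 were called, with 3 false calls. The simulated noise was independent between genes and held no library that deviates as a whole, as B6.Sle1b replicate 1 does. These shares therefore need not hold for the real libraries.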

Additional observations from a re-analysis of the deposited data

How the results depend on the processing

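No homing gene was called under any alternative, and the largest number of loci called in all, 7, came with the ribosomal covariate. Differences that changed sign are given on the log2 scale. With the covariate they were -0.0056 for Ccl19, 0.26 for Ccr6, 0.24 for Ccr7, 0.18 for Cxcl12 and 0.39 for Cxcl13. After ribosomal scaling they were 0.23 for Ccl21a, 0.16 for Ccr6, 0.13 for Ccr7, 0.37 for Cxcl12 and 0.22 for Cxcl13, and after scaling to the total of named loci 0.032 for Cxcl12. With a pseudocount of 10 the ratio of Ccr6 to Ccr7 was -0.030. The cause was not tested.

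Leaving out each library in turn gave 0 homing genes called each time. The differences ranged from -0.22 to 0.93 for Ccl19, -0.37 to -0.04 for Ccl21a, -0.85 to 0.27 for Ccr6, -0.81 to 0.29 for Ccr7, -0.50 to 0.16 for Cxcl12, -0.86 to 0.37 for Cxcl13, -0.89 to -0.09 for Cxcr4 and -0.074 to 0.31 for Gpr183. The ratios ranged from 0.13 to 0.97 for Ccl19 to Ccl21a, -0.31 to 0.32 for Ccr6 to Ccr7, -1.35 to 0.37 for Cxcl13 to Ccl19, -0.60 to 0.56 for Cxcl13 to Ccl21a, -0.36 to 0.21 for Cxcl13 to Cxcl12, -0.85 to 0.23 for Cxcr4 to Ccr7, -0.66 to 0.38 for Cxcr5 to Ccr7 and -0.22 to 0.80 for Gpr183 to Ccr7.

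With the replicate number as a block, 0 homing genes were called and each difference was as without it. Same-numbered libraries did not deviate together (correlations of 0.01, -0.03 and -0.01). Loci called over the whole table numbered 0 by default, 3 with the ribosomal scaling, 6 with all loci, 1 with the total of named loci, 5 without B6.Sle1b replicate 1 and 5 without B6.Sle1b replicate 2. The planned tests for counts were not run because the values are scaled.

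Depth limits these genes. The rarest library values rest on 3 fragments for Ccl19, 4 for Ccr7, 6 for Cxcr4, 8 for Ccr6 and for Cxcl13, while Ccl21a rested on 22 to 36, Cxcl12 on 51 to 109 and Gpr183 on 106 to 160. With a minimum mean of 50, Cxcl12 and Gpr183 alone remained in the test.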
